A study of Homo sapiens with 6 samples.

Results

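Genes that report or tune bone morphogenetic protein (BMP) signalling were followed in a human thyroid cell line with and without a CRISPR knockout of the clock gene BMAL1. The 10 members were ID1, ID2, ID3, ID4, SMAD6, SMAD9, NOG, BMP2, BMP4 and BAMBI, taken by gene symbol. Of these, 5 (ID4, ID2, SMAD6, SMAD9 and NOG) were put forward because they differed between these very libraries, so their values are given as a description, and calls on them are counted only to stand beside the share of all loci called. All 10 were found among the 22354 loci of the count table, and all 10 were among the 14860 loci that passed a filter on low counts.

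BMPs are secreted ligands of the TGF-β family. They bind paired type I and type II receptor kinases, which phosphorylate the receptor-regulated SMADs (SMAD1, SMAD5 and SMAD9), and these enter the nucleus with SMAD4. The ID genes are direct targets whose products bind E proteins and keep them from DNA, while SMAD6 and SMAD7, the inhibitory SMADs, are targets that feed back on the receptors. In the thyroid, BMP signals are known from the development of the gland.

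RNA was sequenced from 6 libraries of HTori-3.1, a line described as normal thyroid, to ask how expression changes once BMAL1 is knocked out. The 3 libraries labelled control carry the genotype wild type, and the 3 labelled BMAL1 knockout came from cells given a lentivirus with Cas9 and an sgRNA against BMAL1, selected with puromycin and grown from single clones. Cells of both groups had been exposed to 2 μM etoposide, a topoisomerase II inhibitor that breaks DNA; the treatment field gives 12 h and the protocol 24 h. How many clones were used and whether replicates were separate cultures is not given, so p-values measure the spread among these libraries only, and a property of a clone cannot be told apart from the knockout.

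The libraries labelled control held 26893063, 27029060 and 28513703 counts, and those labelled BMAL1 knockout held 43148059, 29860233 and 43563391. Levels are CPM (counts relative to the library's total, scaled by TMM), given as mean ± SD with n = 3. Fold changes are libraries labelled BMAL1 knockout over libraries labelled control on the log2 scale, each with a standard error (SE). The SE was derived as the absolute log2 fold change over the square root of the F statistic of edgeR's quasi-likelihood test. Between replicates of a group, counts differed by 5.42 to 45.0 times the variance expected from counting alone, so spread between libraries, whatever its source, rather than counting limits the abundant genes. For ID4, with 12 to 33 counts in the libraries labelled control, counting limits the precision too.

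The targeted gene went against its label. BMAL1 (chromosome 11) was measured at 11.3, 12.2 and 14.6 CPM in the libraries labelled control and at 17.9, 19.8 and 19.4 CPM in those labelled BMAL1 knockout. The transcript was therefore higher in all 3 libraries labelled knockout, with a log2 fold change of 0.58 (SE 0.11, adjusted p = 0.0237 by the quasi-likelihood test of edgeR, Benjamini-Hochberg over 14860 loci). When libraries were left out singly, 2 of the 6 fits kept that call, those that lacked control replicate 3 or knockout replicate 1. BMAL1 shares exon bases with an unnamed gene on the opposite strand. An edited gene can still be transcribed, so a transcript count does not show whether protein was made. The protocol states that the clones were tested for the knockout by western blot, and protein was not analysed here. NR1D1, a known transcriptional target of BMAL1, fell from 7.24 ± 0.463 to 3.05 ± 0.20 CPM (log2 fold change -1.25, SE 0.14, edgeR adjusted p = 0.00121), with all 3 libraries labelled knockout below all controls. NR1D1 shares exon bases with THRA on the other strand, and whether counting used strand is not given. Every direction below is therefore stated for libraries by label.

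Knockout replicate 1 stood apart from its group. Of the 10 members it gave the lowest level of the 3 libraries labelled knockout for 9, and for ID2 the highest. Over all loci tested it was the lowest of the 3 for 45.0% and the highest for 36.41%. Control replicate 3 was the lowest of its group for 40.85% of all loci and the highest for 39.17%. Among the members, control replicate 3 was the lowest of its group for 4 and the highest for 4. In knockout replicate 1 the members lay a median of 0.13 below their group means on the log2 scale (-0.13), against -0.02 for all loci. Where the call of a pathway gene named below changed when knockout replicate 1 was left out, the value without that library is given too.

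Among the ligands, BMP2 (chr20:6767686-6780246) was measured at 3.73, 3.10 and 2.04 CPM in the libraries labelled control and at 2.32, 4.23 and 3.93 CPM in those labelled knockout. The groups overlapped, and the spread within each was wider than the difference of the means (log2 fold change 0.23, SE 0.26). Without knockout replicate 1 the value was 0.46, and without control replicate 3 it was 0.02. BMP4 (chr14:53949736-53958761, reverse strand) was measured at 5.18, 4.53 and 4.93 CPM in controls and at 2.91, 3.73 and 4.13 CPM in libraries labelled knockout. All 3 libraries labelled knockout were lower, with knockout replicate 1 the lowest, at a log2 fold change of -0.44 (SE 0.17) that was -0.30 without that library. BMP4 shares exon bases with an unnamed gene on the opposite strand that is not listed in the count table.

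NOG (noggin, chr17:56593699-56595611), the secreted antagonist that binds BMP ligands and keeps them from their receptors, was measured at 7.23, 8.86 and 8.43 CPM in controls and at 4.78, 5.37 and 5.57 CPM in libraries labelled knockout. The groups did not overlap, and the mean went from 8.17 ± 0.845 to 5.24 ± 0.414 CPM (log2 fold change -0.64, SE 0.13). BAMBI (chr10:28677510-28682932), a pseudoreceptor with no kinase domain that dampens signalling, was measured at 13.0, 12.3 and 13.0 CPM in controls and at 11.4, 13.4 and 12.3 CPM in libraries labelled knockout. Its groups overlapped (log2 fold change -0.05, SE 0.11), and the sign turned to a value of 0.00 when knockout replicate 1 was left out.

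SMAD9 (chr13:36844831-36920887, reverse strand), also called SMAD8, is a receptor-regulated SMAD and not an inhibitory one, although it was grouped with the inhibitory SMADs. It was measured at 5.96, 5.68 and 6.32 CPM in controls and at 11.1, 12.8 and 12.1 CPM in libraries labelled knockout. The 6 libraries fell into tight groups that did not overlap, with a mean that went from 5.99 ± 0.319 to 12.0 ± 0.857 CPM (log2 fold change 1.00, SE 0.12). SMAD6 (chr15:66702236-66782849), which competes for receptors and for SMAD partners, was measured at 17.2, 17.7 and 16.4 CPM in controls and at 21.8, 28.1 and 29.0 CPM in libraries labelled knockout. All 3 libraries labelled knockout were higher, with knockout replicate 1 nearest to the controls. The log2 fold change of SMAD6 was 0.62 (SE 0.12), and 0.74 without that library.

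The ID genes encode helix-loop-helix proteins without a DNA-binding region. All 4 had higher levels in each library labelled knockout than in any labelled control, beside 11.8% of all loci. ID2 and ID4 were put forward for this difference. ID4 (chr6:19837370-19842197) had 17, 12 and 33 counts in controls and 79, 65 and 108 counts in libraries labelled knockout, which is 0.634, 0.449 and 1.18 CPM against 1.85, 2.13 and 2.44 CPM. Control replicate 3 was the highest control, and the log2 fold change of 1.49 (SE 0.30) became 1.98 without it. ID2 (chr2:8678845-8684461) was measured at 12.6, 12.8 and 15.1 CPM in controls and at 24.2, 22.6 and 23.2 CPM in libraries labelled knockout. Within the group labelled knockout ID2 varied least of the 10 members, with a coefficient of variation of 3.41%, and its log2 fold change was 0.79 (SE 0.10). ID2 shares exon bases with ID2-AS1 on the opposite strand, which has no row in the count table, so reads from either strand could have been counted under ID2. ID3 (chr1:23557926-23559501, reverse strand) was measured at 68.6, 74.8 and 61.9 CPM in controls and at 80.5, 91.9 and 92.6 CPM in libraries labelled knockout, a log2 fold change of 0.37 (SE 0.092) that was 0.43 without knockout replicate 1. ID1 (chr20:31605283-31606515) was measured at 77.5, 76.5 and 72.2 CPM in controls and at 83.0, 85.5 and 99.0 CPM in libraries labelled knockout. For ID1 the gap between the highest control and the lowest library labelled knockout was smaller than the spread within the latter group. The log2 fold change of ID1 was 0.24 (SE 0.086), and 0.16 without knockout replicate 3. Summed over the 4 genes, ID levels were 158 ± 7.08 CPM in controls and 203 ± 13.9 CPM in libraries labelled knockout. The ID2 part of that sum was 8.58% ± 1.29 in controls and 11.5% ± 1.08 in libraries labelled knockout, and the ID4 part was 0.485% ± 0.266 and 1.05% ± 0.0726. The ID1 part was lower in libraries labelled knockout, 47.7% ± 1.10 against 43.9% ± 1.64, and the ID3 part was 43.2% ± 2.17 and 43.5% ± 1.69. In bulk RNA, fewer cells expressing a gene and less RNA per cell cannot be told apart.

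**Figure D1:**
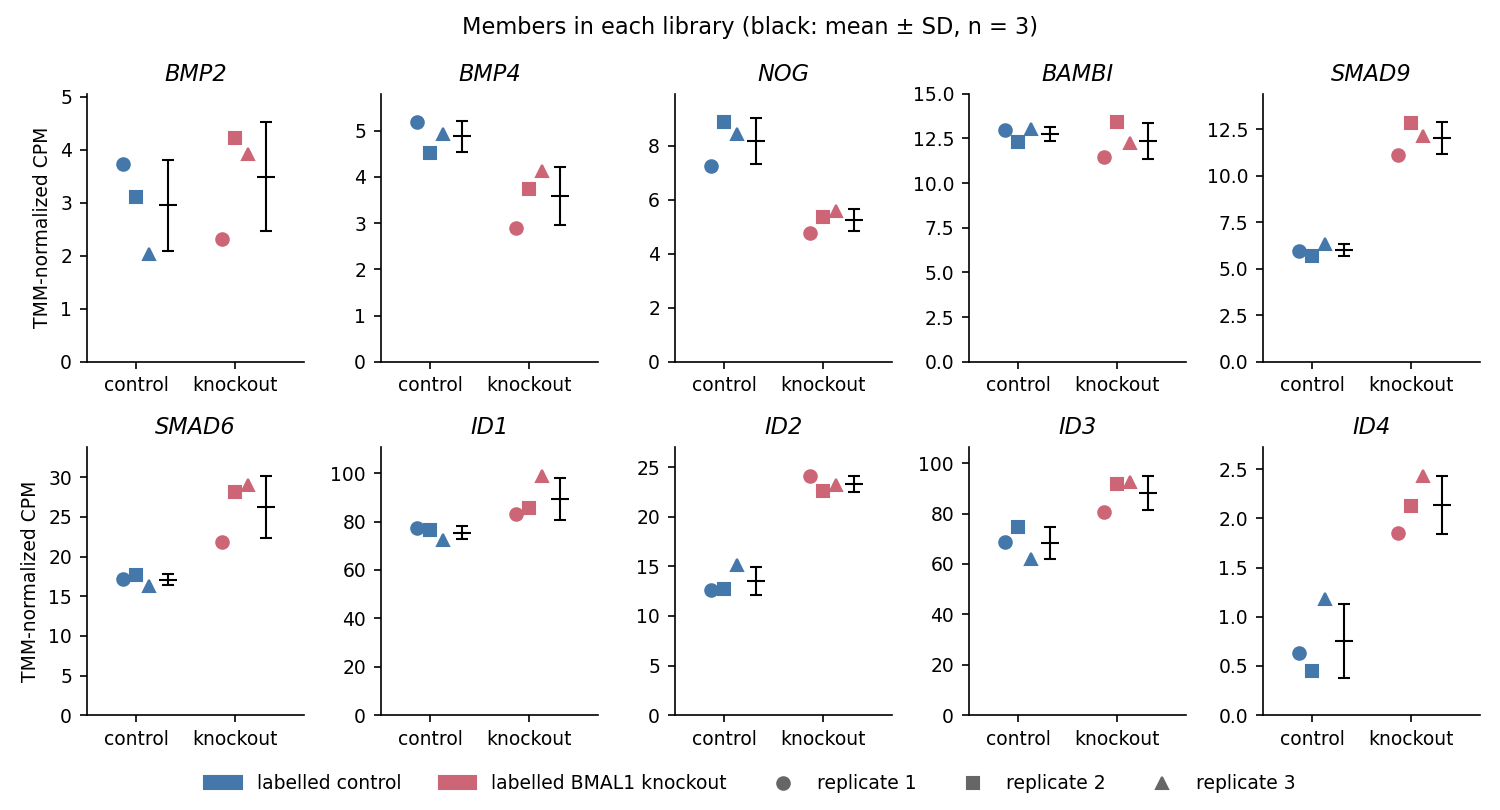
Level of the 10 members in each library, in TMM-normalized CPM on axes that start at 0, with blue for libraries labelled control, red for libraries labelled BMAL1 knockout, shapes for replicates and black marks for mean ± SD (n = 3). The 3 red points lie above all blue points for ID1, ID2, ID3, ID4, SMAD6 and SMAD9, below them for NOG and BMP4, and among them for BMP2 and BAMBI.

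At an adjusted p under 0.05 in the fit over all loci, 4 of the 10 members were called higher (ID2, ID4, SMAD6 and SMAD9) and 1 lower (NOG). These are the 5 that the choice of members rested on, and 0 of the other 5 were called. Of those other 5, 2 higher and 1 lower had an unadjusted p under 0.05, beside 9.1% and 7.76% of all loci. With DESeq2, ID3 was called as well, and with limma-voom 0 of those 5 were. ID3 was also called when knockout replicate 1 was left out, and ID1 and ID3 when the trend with GC content was removed. Among all loci, edgeR called 150 (1.01%) higher and 202 (1.36%) lower, 2.37% in all. When libraries were scaled by their totals alone, 175 were called higher and 155 lower. Groups did not overlap for 8 members, 6 higher and 2 lower, beside 11.8% and 11.5% of all loci in those directions. The median log2 fold change was 0.31 for the 10 members, 0.23 for the 5 not put forward for their change, and 0.01 for all loci. Since members were chosen on this contrast, nothing is read from these counts.

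Leaving out a library moved how many members were called, which is given as a description since the choice of members used these libraries. In place of 4 higher and 1 lower, it gave 2 and 1 without control replicate 1, 2 and 0 without control replicate 2, 3 and 0 without control replicate 3, 5 and 1 without knockout replicate 1, 2 and 0 without knockout replicate 2, and 2 and 0 without knockout replicate 3. The members that lost their call in 1 or more of these fits were ID4, SMAD6 and NOG. Without knockout replicate 1 the log2 fold changes were 0.76 for ID2, 1.60 for ID4, 0.74 for SMAD6, 1.05 for SMAD9 and -0.58 for NOG. The background moved as well. Without knockout replicate 1, 323 loci were called higher and 360 lower, while the counts were 67 and 75 without control replicate 1, 39 and 65 without control replicate 2, 52 and 78 without control replicate 3, 57 and 86 without knockout replicate 2, and 103 and 146 without knockout replicate 3.

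**Figure D2:**
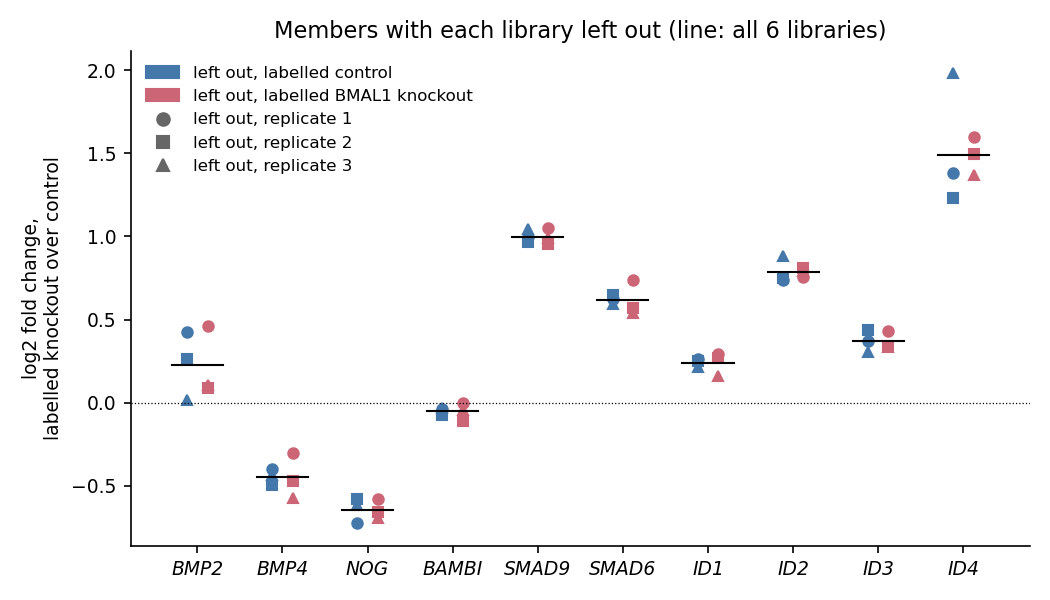
Log2 fold change of each member, libraries labelled BMAL1 knockout over control, when each of the 6 libraries was left out in turn (colour for the group and shape for the replicate left out), with a black line for the value from all 6. ID4 spread most, from 1.23 to 1.98, while SMAD9 stayed between 0.95 and 1.05.

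Per length of exon, which allows levels of different genes to be compared, members spanned a wide range. In libraries labelled control the order, in CPM per kb, was ID1 (61.2 ± 2.27), ID3 (45.7 ± 4.30), ID2 (6.10 ± 0.639), BAMBI (5.96 ± 0.184), NOG (4.27 ± 0.442), SMAD6 (2.00 ± 0.0810), BMP4 (1.58 ± 0.107), SMAD9 (1.01 ± 0.0535), BMP2 (0.834 ± 0.241) and ID4 (0.195 ± 0.0979). ID2 and BAMBI overlapped there, as did SMAD9 and BMP2. In libraries labelled knockout the order was ID1 (72.3 ± 7.02), ID3 (59.1 ± 4.52), ID2 (10.5 ± 0.359), BAMBI (5.78 ± 0.462), SMAD6 (3.07 ± 0.460), NOG (2.74 ± 0.216), SMAD9 (2.02 ± 0.144), BMP4 (1.16 ± 0.202), BMP2 (0.985 ± 0.289) and ID4 (0.552 ± 0.0758). Here ID2 lay clear of BAMBI, while SMAD6 overlapped with NOG and BMP4 with BMP2. Lengths count every annotated exon of a gene once, so a gene whose long exons are seldom used reads too low on this scale.

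**Figure D3:**
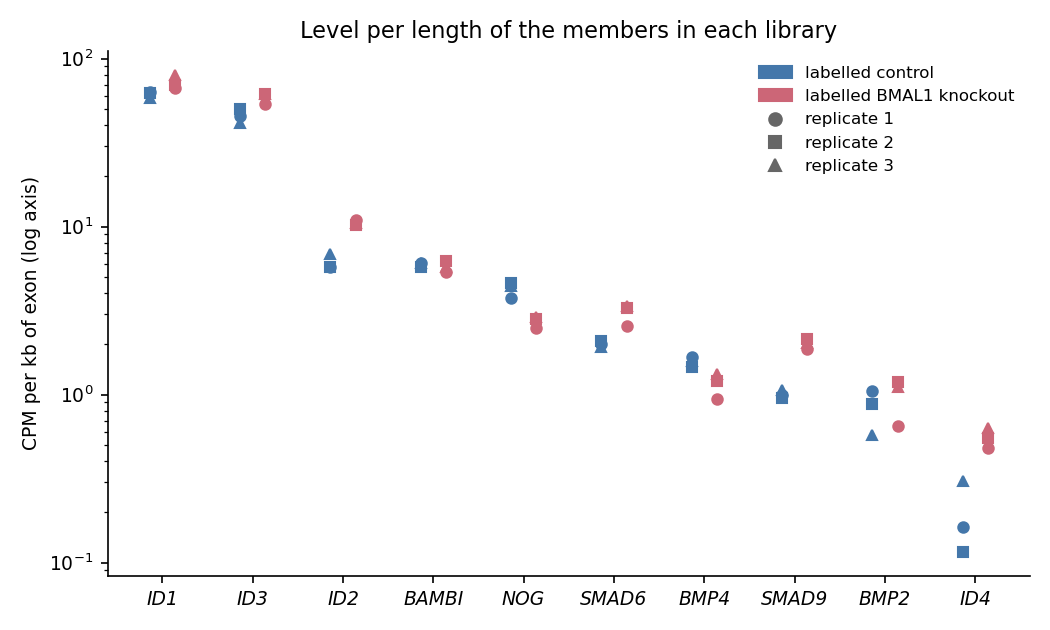
CPM per kb of exon of the 10 members on a log axis, in order of their mean in libraries labelled control, with 1 point per library (blue for control, red for BMAL1 knockout, shapes for replicates). ID1 and ID3 lie above 41 CPM per kb in each library, and ID4 lies below 0.63.

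Promoter windows from RefSeq (GRCh38.p14), each from 250 bases before to 50 bases after a gene's start, were matched by symbol for 8 of the 10 members, all but NOG and BMP2, with 3 windows for BMP4 and 1 for each of the others. Starts here are those of RefSeq and need not match the ends of the gene spans given above. The windows of SMAD9, ID2 and BMP4 lie wholly inside those spans. The windows were searched on both strands for 4 motifs, and different motifs did not overlap. They were the E-box CACGTG bound by clock factors among others, the GC-rich element GGCGCC and the palindrome GTCTAGAC, which SMADs can bind, and the TATA box TATAAA. Of all 35116 windows, 7.26% held the E-box, 19.2% the GC-rich element, 0.202% the palindrome and 11.5% the TATA box. SMAD6 held the palindrome, which began 12 bases before the start. SMAD9 held an E-box that began 178 bases before its RefSeq start, which is inside the gene span given above. BAMBI held 3 copies of the GC-rich element, which began 209, 196 and 181 bases before the start. The TATA box began 31 bases before the start of ID1, where a match on the other strand began at 33 bases and overlaps it, and 29 bases before the start of ID4. BMP4 held 2 copies of the GC-rich element in 1 window, which began 232 bases before the start and 2 bases after it. In another window of BMP4 an E-box began 83 bases before the start, and the BMP4 matches are not printed below. The windows of ID2 and ID3 held none of the 4. A match describes the letters in these windows and says nothing of binding in these cells. The stretches of 90 to 100 bases around the matches are shown so that the elements can be seen in place, for 3 members that were called and for ID1 and BAMBI, with the matches in capitals: SMAD6 at chr15:66702136-66702235 on the forward strand, SMAD9 at chr13:36920359-36920458 on the reverse strand, ID1 at chr20:31605192-31605281 on the forward strand, ID4 at chr6:19837270-19837369 on the forward strand, and BAMBI at chr10:28677281-28677380 on the forward strand.
SMAD6: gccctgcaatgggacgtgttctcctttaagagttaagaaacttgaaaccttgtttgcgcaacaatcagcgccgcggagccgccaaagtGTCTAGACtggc
SMAD9: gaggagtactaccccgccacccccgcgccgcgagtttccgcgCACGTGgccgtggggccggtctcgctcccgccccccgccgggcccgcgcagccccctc
ID1: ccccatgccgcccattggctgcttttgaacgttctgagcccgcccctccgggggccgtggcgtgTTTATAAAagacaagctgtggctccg
ID4: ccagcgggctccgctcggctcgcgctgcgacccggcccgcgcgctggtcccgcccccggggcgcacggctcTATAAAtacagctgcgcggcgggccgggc
BAMBI: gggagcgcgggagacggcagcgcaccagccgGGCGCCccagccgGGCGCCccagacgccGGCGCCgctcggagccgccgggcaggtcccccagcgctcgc

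ID1 and BMP2 are both on chromosome 20, and the other members are on a chromosome each. Each member was set beside the nearest 20 tested genes on either side (33 in all for ID2, near the end of chromosome 2). The median log2 fold change of the neighbours lay between -0.08 (BMP4) and 0.07 (SMAD9) for 9 members. For ID2 it was 0.16, with 28 of 33 neighbours above 0 and 0 of them called by edgeR at an adjusted p under 0.05. None of the neighbours of ID2, ID4 or SMAD9 had a difference as large as the member's own, and 1 neighbour did for SMAD6 and 1 for NOG. For these 5 the choice of members favoured large differences. Among the 40 neighbours of each of the other 5, the count was 2 for BMP4, 6 for ID3, 11 for ID1, 14 for BMP2 and 33 for BAMBI.

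**Figure D4:**
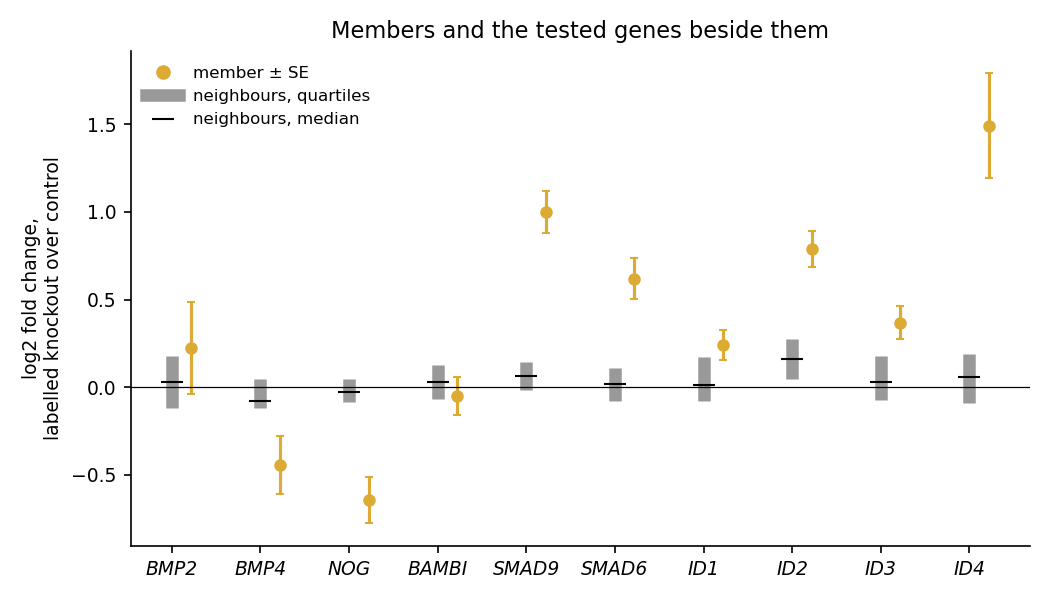
Log2 fold change ± SE of each member (yellow), libraries labelled BMAL1 knockout over control, beside the median (black) and quartiles (grey) of up to 20 tested genes on each side. All members but BAMBI lie outside their neighbours' quartiles, and the neighbours of ID2 have the highest median, 0.16.

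The rest of the pathway was followed in a list of 78 other genes. All 78 were in the count table and 56 passed the filter on low counts, and the test below is edgeR's, adjusted over all 14860 loci. Of the 56, 0 rose and 2 fell (3.57%, beside 2.37% of all loci), and 8 were higher and 10 lower at an unadjusted p under 0.05, beside 9.1% and 7.76% of all loci. DESeq2 called 2 higher and 5 lower, beside 1.8% and 2.67% of all loci, and limma-voom 0 and 2, beside 0.686% and 1.03%. The median log2 fold change was 0.04, with 31 above 0 and 25 below. The 22 genes under the filter included 8 of 12 ligands, and BMP10, BMP15, HJV, SOST, CER1 and DLX5 had 0 counts in all 6 libraries.

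BMPER, a secreted protein that binds BMPs and can either block or aid them, fell. It was measured at 8.65, 8.38 and 10.7 CPM in controls and at 4.69, 4.36 and 6.05 CPM in libraries labelled knockout. All 3 libraries labelled knockout were below all controls, with a log2 fold change of -0.87 (SE 0.16, edgeR adjusted p = 0.0160). Over the alternatives its adjusted p lay between 0.000557 and 0.0887, the latter without control replicate 3, and the call was also lost without knockout replicate 2. RUNX2, a transcription factor of bone formation that acts with SMADs, fell from 21.5, 22.6 and 21.4 CPM in controls to 16.0, 16.0 and 16.6 CPM in libraries labelled knockout. The groups were tight and did not overlap (log2 fold change -0.43, SE 0.090, edgeR adjusted p = 0.0314). That call was kept in 1 of the 6 fits with a library left out, the one without knockout replicate 1, and its adjusted p over the alternatives lay between 0.00469 and 0.159.

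Of the 11 secreted antagonists and modulators tested, the 10 other than BMPER did not pass. GREM1 (gremlin), a BMP antagonist, had 821 ± 54.8 CPM in controls and 665 ± 17.0 CPM in libraries labelled knockout (log2 fold change -0.30, SE 0.074, edgeR adjusted p = 0.0573). FSTL1, a follistatin-like glycoprotein, had 281 ± 4.08 and 353 ± 40.7 CPM (0.33, SE 0.088, edgeR adjusted p = 0.0776). Groups did not overlap for either gene, and both passed when knockout replicate 1 was left out, at -0.30 and 0.42. CRIM1, a membrane protein that binds BMPs, had 335 ± 18.1 and 360 ± 34.7 CPM with overlapping groups.

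Of the 7 receptors tested, 0 passed in edgeR. At an unadjusted p under 0.05, 2 were higher, beside 9.1% of all loci, and groups did not overlap for either. They were ACVRL1 (log2 fold change 1.15, SE 0.35, edgeR adjusted p = 0.111) and ACVR2A (0.27, SE 0.12). ACVRL1 had few counts, 7 to 16 in libraries labelled control and 35 to 50 in those labelled knockout. BMPR2, the main type II receptor, had 133 ± 12.5 CPM in controls and 137 ± 12.0 CPM in libraries labelled knockout, a difference of 0.04 on the log2 scale (SE 0.092) whose sign turned without knockout replicate 3. The type I receptors BMPR1A and ACVR1 had log2 fold changes of 0.14 (SE 0.086) and -0.15 (SE 0.088). BMPR1A was 0.23 without control replicate 3 and 0.09 without control replicate 1. Of the co-receptors, ENG (endoglin) had 77.8 ± 4.48 and 59.6 ± 6.04 CPM with groups that did not overlap (log2 fold change -0.38, SE 0.091, edgeR adjusted p = 0.0517). ENG passed without knockout replicate 1 (-0.33) and without knockout replicate 3. NEO1 (0.11, SE 0.10) and RGMB (-0.14, SE 0.093) had overlapping groups. NEO1 was 0.21 without knockout replicate 1 and 0.04 without knockout replicate 3, and RGMB was -0.05 without control replicate 3. The 4 ligands tested did not pass. BMP8B and BMP8A, near-identical copies between which reads may be split, had log2 fold changes of 0.19 (SE 0.13) and -0.44 (SE 0.23), and GDF6 had 0.51 (SE 0.22). BMP8A was -0.62 without control replicate 3 and -0.26 without control replicate 2. BMP8B, BMPR2, ACVR2A, SMAD4, FKBP1A, SMURF1, SMURF2 and JUNB share exon bases with another gene of the count table, so their counts are uncertain to the extent of that overlap.

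The other SMADs that carry the signal, SMAD1, SMAD5 and SMAD4, had overlapping groups. SMAD1 had 13.4 ± 0.574 CPM in controls and 14.3 ± 0.660 CPM in libraries labelled knockout (log2 fold change 0.08, SE 0.10, and 0.05 to 0.12 with a library left out). SMAD5 had 157 ± 12.4 and 159 ± 7.68 CPM (0.02, SE 0.080), with a sign that turned in 4 of 15 alternatives, and SMAD4 had 97.1 ± 10.6 and 89.7 ± 2.87 CPM (-0.11, SE 0.088), a value of -0.02 without control replicate 3. SMAD7, the other inhibitory SMAD, was named after its values were seen. It was measured at 16.9, 18.3 and 15.8 CPM in controls and at 16.6, 19.9 and 20.3 CPM in libraries labelled knockout, with overlapping groups (0.16, SE 0.11, edgeR adjusted p = 0.517). Its value was 0.24 without knockout replicate 1 and 0.10 without knockout replicate 3. Whether SMAD7 differed from SMAD6 in its change was not tested. Among the other intracellular regulators, FKBP1A, which holds type I receptors inactive, had 295 ± 4.70 and 251 ± 4.81 CPM (-0.23, SE 0.068, edgeR adjusted p = 0.101), and it passed at -0.24 without knockout replicate 1. The ubiquitin ligases SMURF2 and SMURF1 had log2 fold changes of -0.24 (SE 0.080) and -0.05 (SE 0.080), and without knockout replicate 1 SMURF2 passed at -0.29 and the sign of SMURF1 turned.

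Of 13 other target genes tested, 1 fell (RUNX2) and 0 rose, with 3 higher and 4 lower at an unadjusted p under 0.05. Of all loci, 1.36% fell and 1.01% rose, and 9.1% were higher and 7.76% lower at an unadjusted p under 0.05. KLF10, an early response gene of the TGF-β family, had 98.4 ± 4.53 and 107 ± 1.39 CPM (log2 fold change 0.12, SE 0.072), and JUNB had 27.9 ± 0.437 and 34.0 ± 9.15 CPM (0.28, SE 0.17). JUNB passed at 0.49 without knockout replicate 1, and its value was 0.13 without knockout replicate 3 and 0.21 without knockout replicate 2. ATOH8, a target known from endothelium and liver and named after its values were seen, had 7.39 ± 1.29 and 11.1 ± 1.58 CPM (0.58, SE 0.15, edgeR adjusted p = 0.0709), and it passed at 0.66 without knockout replicate 1. Besides RUNX2, the targets lower at an unadjusted p under 0.05 were MSX1 (-1.35, SE 0.44), GATA3 (-0.46, SE 0.17) and TBX3 (-0.34, SE 0.13). Besides ATOH8, those higher were DLX3 (0.90, SE 0.32) and GATA2 (0.32, SE 0.14). MSX1 had 7 to 25 counts per library and DLX3 9 to 48. These genes too were named after their values were seen. The E proteins that ID proteins bind did not pass in edgeR. TCF12 had a log2 fold change of 0.10 (SE 0.078, and 0.06 to 0.15 with a library left out). TCF3 had -0.09 (SE 0.11) and TCF4 0.05 (SE 0.13), and the signs of TCF3 and TCF4 turned when knockout replicate 1 was left out.

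**Figure D5:**
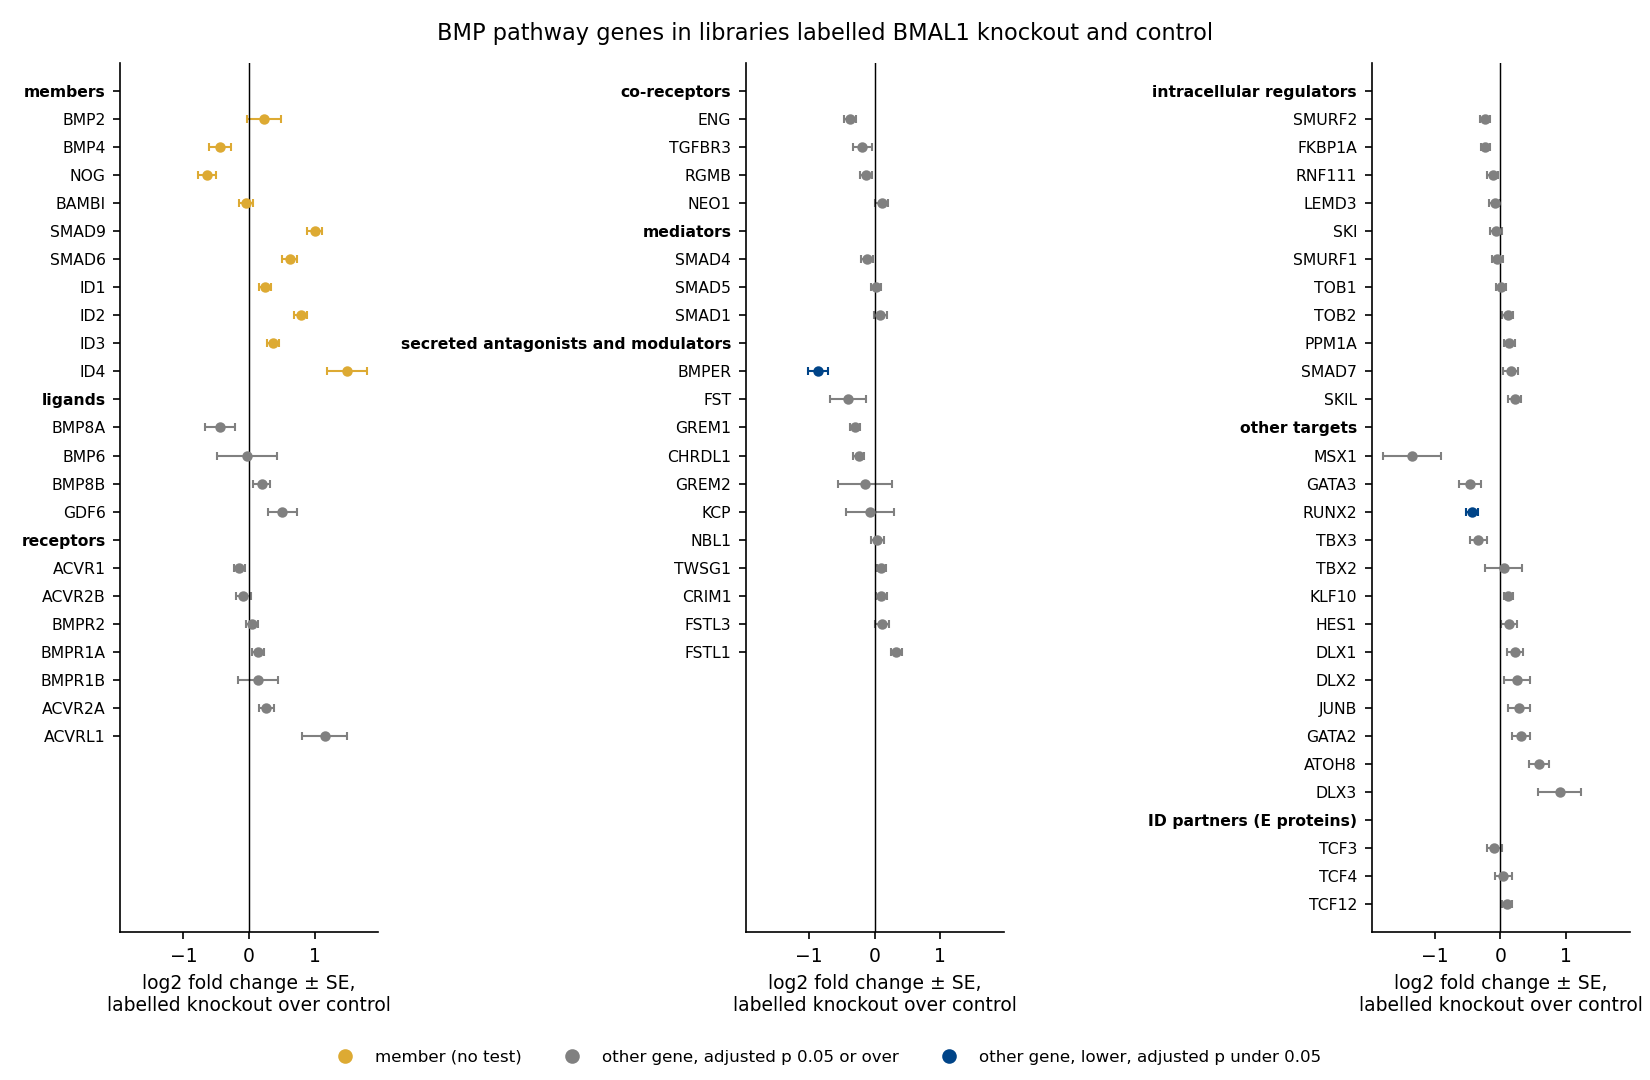
Log2 fold change ± SE of the 10 members (yellow, no test) and the 56 other BMP pathway genes tested, by role, libraries labelled BMAL1 knockout over control, with dark blue for genes with an edgeR adjusted p under 0.05 over all loci and grey for the others. BMPER (-0.87) and RUNX2 (-0.43) are the 2 in blue, and SMAD1, SMAD4 and SMAD5 lie within 0.12 of 0.

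Genes with the most similar profile over the 6 libraries were found for the 5 members put forward for their change, by the root mean square difference of centred log2 CPM among 12478 protein-coding genes. For ID2 they were ZNF136 (0.080) and SPATA6 (0.084), and for ID4 they were ZNF525 (0.26) and PTPRQ (0.28). For SMAD6 they were HSPA2 (0.053) and TUBB2B (0.054), for SMAD9 INSYN2A (0.091) and ALDH1L2 (0.11), and for NOG DUSP4 (0.082) and F2R (0.087). ID2 ranked 12 for SMAD9 at a difference of 0.14, and SMAD9 ranked 24 for ID2. Ranks of other members varied widely and depended on which gene was the reference. ID4 ranked 10118 for ID2 and 12208 for SMAD6, while for ID4 itself SMAD9 ranked 22, ID2 46 and SMAD6 185. SMAD6 ranked 78 for SMAD9 and 149 for ID2, ID3 ranked 112 for SMAD6, and BMP4 ranked 223 for NOG. NOG lay at ranks 12224 to 12299 for ID2, ID4, SMAD6 and SMAD9. These profiles include the difference between the groups, on which the 5 were chosen.

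The label of a thyroid line was set beside marker genes. Of 8 markers of thyroid follicular cells, 2 had a mean of at least 1 CPM, PAX8 (133 ± 15.4 CPM in controls) and FOXE1 (48.0 ± 0.717 CPM in controls), while NKX2-1 had 0 counts in all 6 libraries. TG, the precursor of thyroid hormone, had at most 13 counts in any library, and SLC5A5, the iodide transporter, at most 8. Summed follicular markers were 173, 174 and 201 CPM in controls and 130, 149 and 173 CPM in libraries labelled knockout. Of 5 epithelial markers 3 reached 1 CPM, led by KRT8 (1282 CPM over the 6 libraries). Their sum was 2266, 2313 and 2223 CPM in controls and 1816, 1722 and 1767 CPM in libraries labelled knockout, and KRT18 fell (log2 fold change -0.50, edgeR adjusted p = 0.00588), a call that was lost without control replicate 2 (-0.49). KRT8 and KRT18 make up most of that sum. KRT19 (log2 fold change 0.23) and EPCAM (1.55, at most 17 counts in any library) lay the other way and did not pass, and CDH1 had at most 14 counts in any library (0.23 CPM in controls and 0.30 CPM in libraries labelled knockout). Fibroblast markers reached 1 CPM for 2 of 7, led by COL1A1 (860 CPM over the 6 libraries), with DCN and LUM at 0, and their sums overlapped between groups, at 922, 926 and 790 CPM in controls and 718, 935 and 989 CPM in libraries labelled knockout.

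Markers of other cell types were low. Smooth muscle markers reached 1 CPM for 1 of 3, ACTA2, which rose (log2 fold change 0.95, edgeR adjusted p = 0.0182). That call was kept in 2 of 6 fits with a library left out (values 0.88 to 1.03), those that lacked knockout replicate 1 or 3. The sum of these markers was 2.91, 2.69 and 2.36 CPM in controls and 5.08, 4.72 and 4.11 CPM in libraries labelled knockout. Immune markers reached 1 CPM for 2 of 6, led by CD68 (11.1 CPM over the 6 libraries), with the T cell marker CD3E at 0. Their sum was 19.3, 19.9 and 17.9 CPM in controls and 14.2, 12.5 and 13.1 CPM in libraries labelled knockout, and PTPRC fell (log2 fold change -1.42, edgeR adjusted p = 0.00107). CD68 and PTPRC make up most of that sum, and CD14 lay the other way (0.413 and 0.835 CPM, log2 fold change 0.97) and did not pass. Endothelial markers reached 1 CPM for 1 of 5, VWF (1.10 CPM over the 6 libraries), with sums of 2.27, 2.28 and 2.54 CPM in controls and 1.73, 1.47 and 2.08 CPM in libraries labelled knockout. C cell markers reached it for 0 of 3, with CALCA at 0, CHGA highest (0.15 CPM over the 6 libraries) and sums of at most 0.328 CPM. The epithelial, smooth muscle, immune and endothelial sums did not overlap between groups, and their part in the values of the BMP genes was not tested.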

How the data were processed

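The authors deposited a table of read counts per gene, not normalized, in whole numbers, for 6 libraries. Their notes name fastp 0.20.1, HISAT2 2.0.4 and hg38; gene annotation and strandedness are not given in the sources used here. Symbols were matched to GENCODE v44 for position, exon length and GC content (20018 of 22354 loci).

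CPM with TMM scaling, log2 fold changes and p-values were computed with edgeR 4.0.16 (R 4.3.3) after filterByExpr (the quasi-likelihood test with robust estimation, group as the only term, 2-sided), with Benjamini-Hochberg adjustment across 14860 loci. The fits were tested on simulated data. Knockout libraries numbered 3 and controls 3, for which an exact permutation test cannot go below 0.1, so none was used. Alternatives were DESeq2 1.42.0, limma-voom (limma 3.58.1), other scalings and filters, a replicate block, leaving out each library, removal of the trend with GC content, thinning and other thresholds.

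The members and gene lists were chosen with earlier results of these data known. Named genes were the members, BMAL1, NR1D1, listed pathway genes called, the 3 most abundant of each role (all mediators and E proteins), the 2 nearest profiles of each of 5 members among genes of at least 1 CPM, and the cell type markers, some of which are not reported here. SMAD7, ATOH8, MSX1, GATA3, TBX3, DLX3, GATA2, ACVRL1, ACVR2A and the genes without counts were named outside this rule, after their values were seen.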

Additional observations from a re-analysis of the deposited data

How the results depend on the processing

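Beside the 150 loci higher and 202 lower, DESeq2 called 256 and 379, removal of the GC trend 475 and 568, an adjusted p under 0.01 gave 35 and 58, and one under 0.1 gave 363 and 388. Leaving out 1 library gave 39 to 323 higher and 65 to 360 lower. Of the 56 other pathway genes (0 higher, 2 lower), DESeq2 called 2 higher (FSTL1, ATOH8) and 5 lower (ENG, GREM1, BMPER, FKBP1A, RUNX2), GC removal called 1 and 7, an adjusted p under 0.01 gave 0 and 0, and one under 0.1 gave 2 and 4. Leaving out 1 library gave 0 to 3 higher and 0 to 7 lower. Of the members (4 higher, 1 lower), an adjusted p under 0.01 left 2 higher and 0 lower, thinning to the smallest total left 0 lower, DESeq2 and an adjusted p under 0.1 each gave 5 higher, removal of the GC trend gave 6 higher (ID1 and ID3 added), and leaving out 1 library gave 2 to 5 higher and 0 to 1 lower. The cause of these shifts was not tested, though fewer libraries and other thresholds change counts by construction. Same-numbered libraries did not deviate together (correlations of -0.0896, -0.0517 and -0.00471). That gave no sign of pairing by number, but it cannot show whether libraries were handled in pairs. With the replicate block 97 loci were higher and 119 lower, and 1 other pathway gene (BMPER) was lower. No named gene that was called changed sign under any alternative. Of the members, ID4 had the fewest counts, 12 to 108 per library.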
